A study of Mus musculus with 25 samples.

Results

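Transcripts of the lysosomal proton pump, the cathepsins and other lysosomal hydrolases were measured in leukocytes sorted from injured mouse muscle and in cultured bone marrow-derived macrophages (BMDM). The 39 genes were picked by symbol from the 38087 genes listed in each of 2 expression tables, and each was found once in both. They comprise 14 proton pump genes (5 of the membrane sector V0, 7 of the cytosolic sector V1 and 2 accessory proteins), 10 cathepsins, 6 glycosidases, legumain, the precursors prosaposin and progranulin, 3 lysosomal membrane proteins, and the transcription factors Tfeb, Tfe3 and Mitf.

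All mice were C57BL/6J, labelled as male adults of 2 to 4 months. The tibialis anterior muscle was injected with cardiotoxin (CTX), which comes from snake venom and destroys muscle fibres, and CD45+ leukocytes were isolated with magnetic beads and then sorted by flow cytometry. The sorted groups were Ly6Chigh F4/80low macrophages at day 2 (3 samples) and day 4 (2 samples), Ly6Clow F4/80high macrophages at day 2 (3 samples) and day 4 (2 samples), and Ly6Ghigh neutrophils at day 1 (3 samples). BMDM were grown from marrow of mice aged 8 to 10 weeks, per the labels' protocols, for 7 days with 10 ng/ml of the growth factor M-CSF and then kept for 24 h without it. 3 BMDM samples were left untreated, and 3 received 10 nM resolvin D2 (RvD2) for 4 h, a lipid signal that cells derive from an omega fatty acid and that promotes the resolution of inflammation; the labels call the controls untreated and name no vehicle. Every muscle group came from injured tissue, so there is no uninjured reference, and neutrophils and macrophages were taken at different days. BMDM are a culture model that matured under 1 growth factor, outside injured tissue.

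The lysosome is the acidic compartment in which a cell digests what it has engulfed and its own worn parts. Its acid is made by the vacuolar proton pump, in which the V1 sector splits ATP and the V0 sector carries protons across the membrane, and the acid activates cathepsins, which are proteases, and glycosidases, which take sugars off glycoproteins, glycolipids and glycosaminoglycans. Macrophages that clear dead muscle fibres and dying neutrophils depend on this machinery, and TFEB and TFE3 are transcription factors known to activate many lysosomal genes through an E-box motif.

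The promoter sequences are shown because many lysosomal genes are known targets of such factors and many members differed in the same direction between macrophage subsets. RefSeq windows on GRCm38.p6, from 250 bases before to 50 bases after a start, were at hand for 33 of the 39 members in 43 windows; Ctsb, Ctsh, Atp6v0d2, Atp6v1b2, Atp6v1c1 and Atp6v1h had none. The 8-letter motif TCACGTGA was present, on either strand, in a window of 5 of the 33 members (15.2%), compared with 1.12% of all 27025 genes with a window. Its core CACGTG, which the longer motif contains, was present for 13 of 33 members (39.4%) and 8.09% of all genes. The related motif TCATGTGA was present for 3 of 33 members (9.09%), Ctss, Atp6v0c and Grn, and for 1.15% of all genes. The 5 members with the 8-letter motif were Ctsa, Ctsd, Mcoln1, Atp6v1a and Atp6v0d1. In the stretches below, which end before the RefSeq start and run 5′ to 3′ on the gene's strand, capitals mark these motifs.
Ctsa, chr2:164833749-164833772, plus strand: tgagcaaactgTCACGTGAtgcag
Ctsd, chr7:142387908-142387937, minus strand: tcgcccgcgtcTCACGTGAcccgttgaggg
Atp6v1a, chr16:44139358-44139417, minus strand: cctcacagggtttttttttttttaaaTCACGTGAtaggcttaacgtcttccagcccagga
Lamp1, chr8:13159074-13159160, plus strand: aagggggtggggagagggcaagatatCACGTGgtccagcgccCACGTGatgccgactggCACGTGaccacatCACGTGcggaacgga
Glb1, chr9:114401004-114401061, plus strand: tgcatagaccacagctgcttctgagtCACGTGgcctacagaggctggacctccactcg
Grn, chr11:102430285-102430314, plus strand: tgattctctaaTCACATGAtccctagaaat
Lamp1 holds 4 copies of the core motif in 87 bases, and the Grn stretch shows TCATGTGA from its other strand. The stretches of Atp6v1a, Lamp1, Glb1 and Grn touch no exon of GENCODE M21, whereas those of Ctsa and Ctsd meet an exon of another transcript of the same gene. A match of letters shows neither binding nor use.

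The files give log2 normalised read counts per gene. For muscle they hold 1 value per group, taken here as the authors' mean of log2 values. No muscle difference therefore has an error or a test, and none could be set against the spread between replicates. Levels below are these log2 values, in the order Ly6Chigh day 2, Ly6Chigh day 4, Ly6Clow day 2, Ly6Clow day 4, neutrophils. A muscle ratio is the log2 ratio of normalised counts after adding 10, which understates changes of low genes, and a gene is said to be called when it differed at least 2-fold with the higher group at 50 normalised counts or more. The neutrophil column sums to more normalised counts than any macrophage column, which is why a rescaling to equal totals is given beside the neutrophil results; the depth behind the muscle groups is unknown. Estimated depth in BMDM was 9.05 to 14.3 M gene reads per library. The labels give separate samples but not separate animals or cultures, so BMDM p-values measure the spread between samples, which may be technical.

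Sort genes followed the labels. Ly6c2 was at 11.86, 13.52, 7.12, 6.55 and 10.31, and Emr1, which encodes F4/80, at 13.08, 13.80, 13.80, 14.26 and 11.07. Ly6g was at 7.20 in neutrophils and listed at 0 in the macrophage groups. All 8 macrophage markers were detected in each macrophage group, where they summed to 1.80 to 2.50% of normalised counts, and in neutrophils they summed to 1.19%, most of it Cd14 at 17.74, with Csf1r at 13.42 and Mertk at 3.69. Markers of other cells differed between days, and not all in the same direction. The 11 fibroblast markers summed to 0.00243% of normalised counts in Ly6Chigh cells at day 2 and 0.238% at day 4, and to 0.000813% and 0.0179% in Ly6Clow cells. Dendritic cell markers summed to 0.00141% and 0.0179% in Ly6Chigh cells at days 2 and 4, and T and NK cell markers to 0.000306% and 0.0076%. Neutrophil markers summed to 0.018 to 0.0254% in the macrophage groups, and endothelial markers to 0.00374% in Ly6Clow cells at both days and to 0.00452% and 0.01% in Ly6Chigh cells. In BMDM the fibroblast markers summed to 0.558 to 0.653% in untreated and 0.507 to 0.743% in RvD2 libraries, with Col1a1 at 13.95 to 14.53.

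The members covered a wide range of levels, and some ranked among the most abundant transcripts. Summed over the 39 genes they made up 5.30% and 5.48% of all normalised counts in Ly6Chigh cells at days 2 and 4, 10.4% and 9.07% in Ly6Clow cells, and 2.48% in neutrophils. The 10 cathepsins accounted for 2.48%, 2.58%, 6.0%, 4.71% and 0.986% in the same order. In contrast, the 14 pump genes kept to 0.374%, 0.319%, 0.463%, 0.370% and 0.464%. Per kilobase of exon, Ctsd reached 123000 normalised counts in Ly6Clow cells at day 2 and ranked 2 among 21160 protein-coding genes, and Psap reached 112000 and ranked 3. At the other end, Ctsf had 2.39 normalised counts per kilobase in the same cells. Of the transcription factors, Tfe3 was at 171, Mitf at 132 and Tfeb at 102 per kilobase there.

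**Figure D1:**
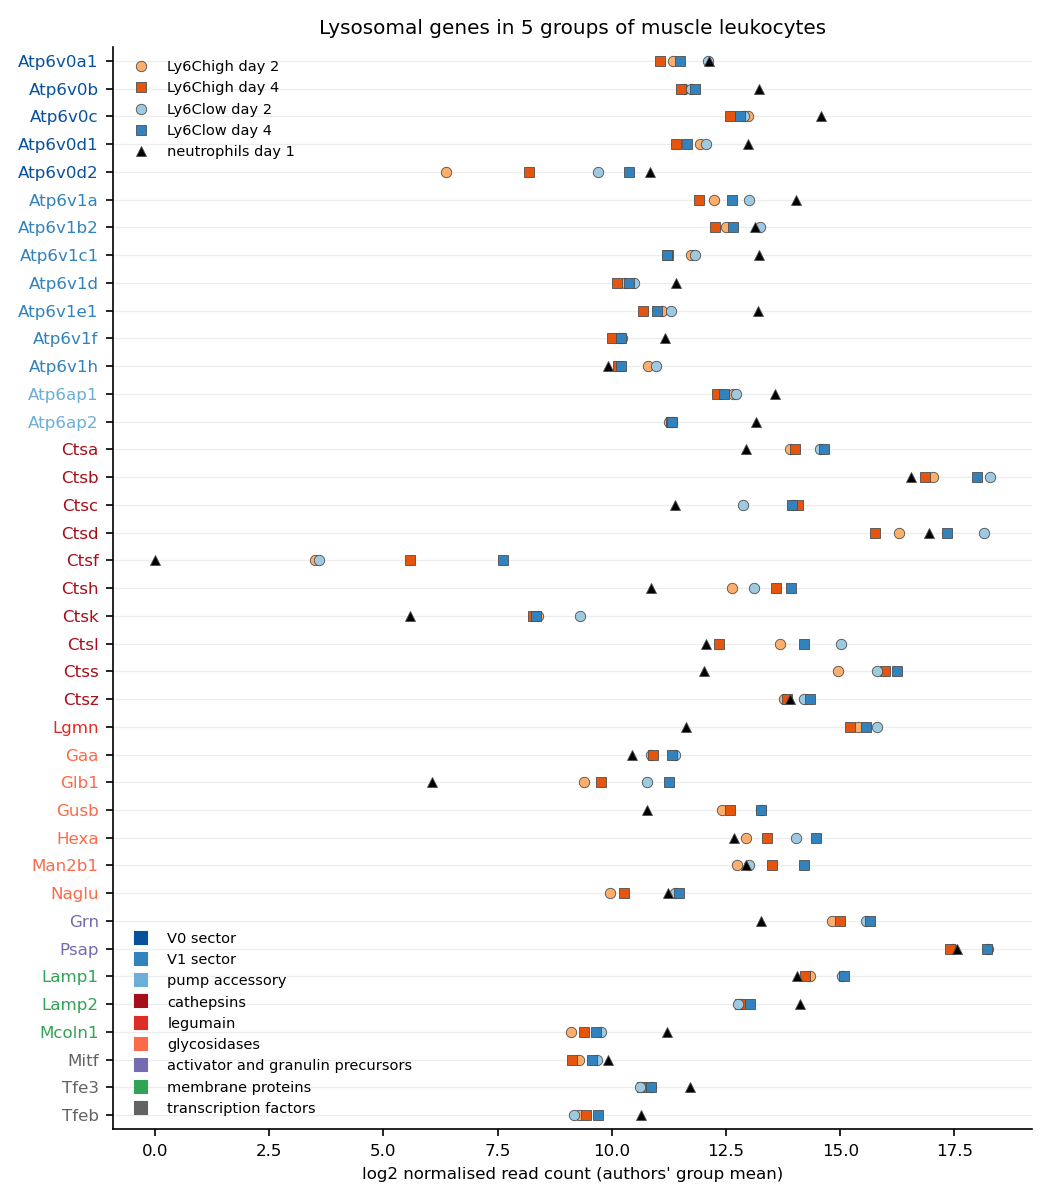
Level of each of the 39 genes (rows, coloured by role) in 5 groups of muscle leukocytes, as log2 normalised read count; each point is the authors' mean of a group, with no error available. Pump genes have neutrophils mostly to the right, and among them Atp6v0d2 has its 4 macrophage points spread widest. Most cathepsin and glycosidase genes have neutrophils to the left and Ly6Clow cells to the right.

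Ly6Clow against Ly6Chigh macrophages compares the F4/80high cells that take over in regenerating muscle with the cells that resemble recruited monocytes. At day 2, 7 of the 39 members were called higher in Ly6Clow cells (Atp6v0d2, Ctsb, Ctsd, Ctsl, Hexa, Glb1 and Naglu) and 1 was lower (Ctsc). Over all 11275 genes with a level of 50, 5.9% were called higher and 5.46% lower. At day 4, 8 members were called higher, namely the same 7 and Ctsf, and 0 were lower, against 2.98% and 4.22% of 11764 genes. Ctsf passed the level of 50 through Ly6Clow cells of day 4 alone. It could therefore only be called higher, with a ratio above 0, and its call says nothing about the members. The members' median log2 ratio was 0.49 at day 2 (33 of 38 above 0) and 0.40 at day 4 (37 of 39 above 0), and that of all genes with a level of 50 was -0.0022 and 0.0094. At 1.5-fold, 18 members were higher and 1 lower at day 2, beside 14.6% and 12.1% of genes, and at day 4 it was 15 and 0, beside 9.22% and 9.55%. At day 2, 3 of 3 fibroblast markers with a level of 50 were called lower in Ly6Clow cells (median -1.16), as were 2 of 4 endothelial markers, and 1 of 5 neutrophil markers, Retnlg, was called higher. Each of these called markers reached the level of 50 in 1 of the 2 subsets only, so it could be called in 1 direction only. In such bulk samples fewer cells of a type and less RNA per cell cannot be told apart. At day 4 all 11 fibroblast markers were called lower in Ly6Clow than in Ly6Chigh cells (median log2 ratio -3.39). Of 9 dendritic cell and 9 T and NK cell markers, 7 and 4 had a level of 50, and all of these were called lower. So were 3 of 4 endothelial markers with a level of 50 and 1 of 3 such neutrophil markers, again Retnlg. In turn, 1 of 6 skeletal muscle markers with that level, Ckm, was called higher. In Ly6Clow cells the called dendritic cell and T and NK cell markers were under 50, as were Pdgfra, Loxl1, Dcn, Lum, Cdh5, Pecam1 and Retnlg. These passed the level through Ly6Chigh cells alone and could only be called lower. Ckm passed through Ly6Clow cells alone. The part of these markers in the ratios of either day was not tested.

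The excess in Ly6Clow cells lay in the enzymes more than in the pump. For cathepsins, glycosidases and legumain together the median log2 ratio was 0.85 at day 2 (16 genes) and 0.68 at day 4 (17 genes). For the 14 pump genes it was 0.16 and 0.27. These medians describe groups of genes and carry no test.

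Among the cathepsins, the aspartic protease cathepsin D and the cysteine proteases B and L were the 3 called higher at both days. Ctsd had levels of 16.28, 15.77, 18.14, 17.34 and 16.93, which put Ly6Clow cells 3.63-fold higher at day 2 and 2.98-fold at day 4. Ctsb had levels of 17.03, 16.86, 18.28, 17.99 and 16.54, a 2.38-fold and 2.18-fold excess. Ctsl had levels of 13.68, 12.34, 15.02, 14.21 and 12.07, a 2.52-fold and 3.65-fold excess. In each of these 3 genes both Ly6Clow groups lay above both Ly6Chigh groups.

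Cathepsins S, H and C, which act in antigen processing or activate granule proteases, went with the day as much as with the subset. Ctss, the protease that trims the invariant chain of MHC class II, had levels of 14.95, 15.98, 15.79, 16.25 and 12.01. Ctsh, an aminopeptidase, had levels of 12.63, 13.59, 13.10, 13.93 and 10.86. Both were lowest, among macrophages, in Ly6Chigh cells at day 2. Ctsc, the dipeptidyl peptidase that activates serine proteases of granules, had levels of 13.96, 14.08, 12.87, 13.95 and 11.38. Ly6Clow cells at day 2 stood below the other macrophage groups in Ctsc, 2.12-fold below Ly6Chigh cells of that day.

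Cathepsins K and F were the least abundant. Ctsk, a collagenase best known from osteoclasts, had levels of 8.38, 8.27, 9.31, 8.34 and 5.58, with Ly6Clow cells 1.89-fold higher at day 2 and 1.05-fold at day 4. Fibroblasts also express Ctsk, and the part of their RNA in its levels was not tested. Ctsf had levels of 3.51, 5.58, 3.59 and 7.61 in the macrophage groups and was listed at 0 in neutrophils. Only Ly6Clow cells at day 4 exceeded 50 normalised counts of Ctsf, 3.55-fold above Ly6Chigh cells of that day. Against the other macrophage groups Ctsf could therefore only be called higher in these cells. Ctsa, a carboxypeptidase that also protects beta-galactosidase and neuraminidase, had levels of 13.90, 14.00, 14.56, 14.65 and 12.95. Ctsz, another carboxypeptidase, had levels of 13.77, 13.84, 14.21, 14.34 and 13.90. Neither of these was called between subsets, although Ly6Clow cells had the higher level at both days. Lgmn, encoding the asparaginyl protease legumain that processes several cathepsins, had levels of 15.39, 15.22, 15.80, 15.56 and 11.61.

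Glycosidases that act on glycolipids and heparan sulfate stood higher in Ly6Clow cells at both days. Glb1, lysosomal beta-galactosidase, had levels of 9.38, 9.77, 10.77, 11.25 and 6.07, a 2.60-fold and 2.75-fold excess. Naglu, which removes N-acetylglucosamine from heparan sulfate, had levels of 9.97, 10.28, 11.38, 11.48 and 11.24, a 2.64-fold and 2.29-fold excess. Hexa, the alpha subunit of beta-hexosaminidase, had levels of 12.93, 13.40, 14.03, 14.48 and 12.66, a 2.14-fold and 2.11-fold excess. With equal totals the day 4 ratio of Hexa was 0.97 on the log2 scale, under the 2-fold needed for a call, and 7 members in place of 8 were called higher. In Glb1, Naglu and Hexa both Ly6Clow groups were above both Ly6Chigh groups. Gusb, beta-glucuronidase, had levels of 12.42, 12.59, 13.27, 13.27 and 10.77, and was 1.81-fold and 1.60-fold higher without being called. Gaa, which breaks down glycogen in lysosomes, had levels of 10.86, 10.90, 11.38, 11.31 and 10.45. Man2b1, an alpha-mannosidase, had levels of 12.74, 13.51, 12.99, 14.20 and 12.93, and was 1.20-fold and 1.62-fold higher in Ly6Clow cells. Across days, 6 of 6 glycosidases had a ratio above 0 in Ly6Chigh cells and 5 of 6 in Ly6Clow cells, and Man2b1 was the one called, in Ly6Clow cells.

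Prosaposin and progranulin, whose products assist lipid breakdown and lysosomal function, were among the abundant members and kept to the same side. Psap had levels of 17.46, 17.40, 18.23, 18.21 and 17.55, and Ly6Clow cells were 1.71-fold and 1.75-fold higher. Grn had levels of 14.81, 15.00, 15.57, 15.66 and 13.27, and Ly6Clow cells were 1.69-fold and 1.58-fold higher. The membrane glycoprotein gene Lamp1 had levels of 14.33, 14.22, 15.04, 15.07 and 14.05, and Ly6Clow cells were 1.64-fold and 1.81-fold higher. None of these 3 reached 2-fold, but in each both Ly6Clow groups exceeded both Ly6Chigh groups. Lamp2, a second membrane glycoprotein with a part in autophagy, did not share this order, with levels of 12.80, 12.80, 12.75, 13.02 and 14.12. Mcoln1, a calcium channel of the lysosome, had levels of 9.12, 9.38, 9.75, 9.66 and 11.21.

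None of the transcription factors was called between the subsets. Tfeb had levels of 9.29, 9.44, 9.18, 9.70 and 10.64. Tfe3 had levels of 10.87, 10.67, 10.63, 10.86 and 11.72. For Mitf, a related factor that drives pigment cell and osteoclast genes, the levels were 9.28, 9.12, 9.67, 9.56 and 9.92. Their subset ratios ranged from -0.24 (Tfe3 at day 2) to 0.43 (Mitf at day 4) on the log2 scale. Those of Mitf, 0.39 and 0.43, were near the members' medians of 0.49 and 0.40, and those of Tfeb and Tfe3 changed sign between days. Transcript levels say nothing of where these proteins were in the cell, through which they are mainly regulated.

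The subset ratios of the 2 days come from different samples and can be set side by side. Over the 38 members with a level of 50 at both days, Pearson's r was 0.872 and Spearman's rho 0.811, and 33 had the same sign. Over 10990 genes r was 0.758 and rho 0.714, and 8271 had the same sign. These are descriptions across genes, which share the same group columns and are not independent. Atp6v0d2, Ctsk and Ctss had a smaller ratio at day 4, with shifts of -1.03, -0.84 and -0.57 on the log2 scale, and Ctsf, Ctsc and Ctsl had a larger one.

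**Figure D2:**
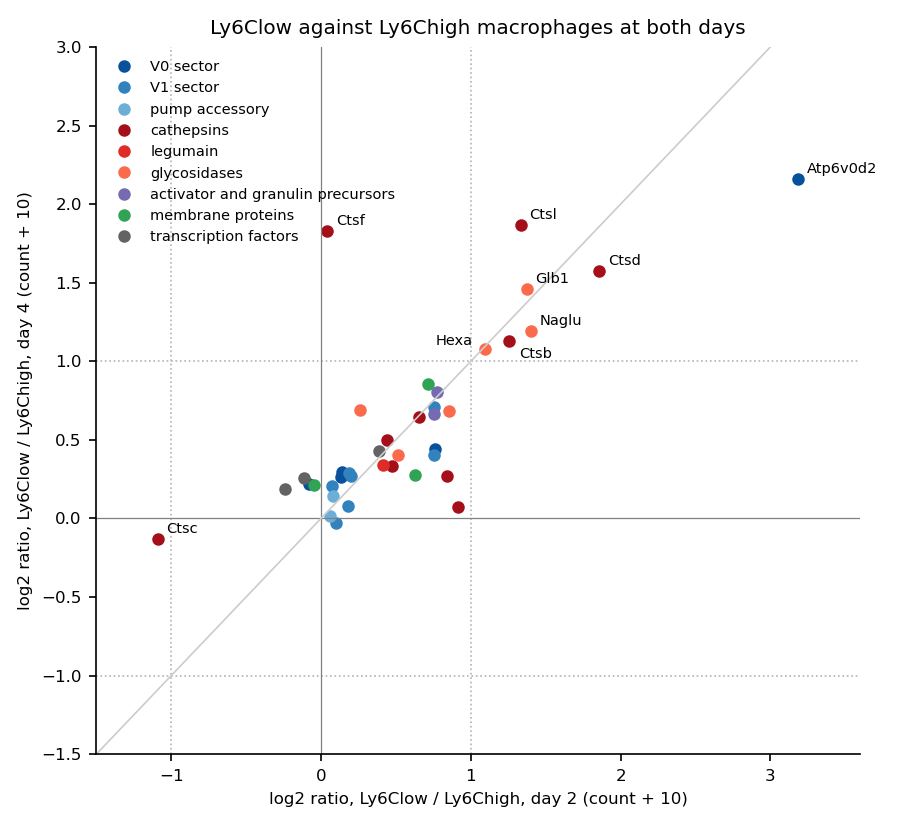
Log2 ratio of Ly6Clow to Ly6Chigh macrophages at day 2 (x axis) and day 4 (y axis) for the 39 genes, after adding 10 to the normalised counts; dotted lines mark 2-fold, the diagonal equal ratios, and names are given for genes called at either day. Atp6v0d2 lies at 3.19 and 2.16, Ctsd at 1.86 and 1.57, while the other pump genes lie between -0.08 and 0.76 on the x axis.

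Among pump genes Atp6v0d2 was the one called between subsets, and it had the largest subset ratio of the 39 members at both days. Subunit d, which joins the V0 and V1 sectors, has a widely expressed form, Atp6v0d1, and a form known from osteoclasts, kidney and some macrophages, Atp6v0d2 (chromosome 4, 19876841 to 19922605, minus strand, GRCm38). Atp6v0d2 had levels of 6.37, 8.18, 9.70, 10.38 and 10.85. It was 9.10-fold higher in Ly6Clow than Ly6Chigh cells at day 2 and 4.46-fold at day 4, and within Ly6Chigh cells 3.25-fold higher at day 4 than at day 2. Atp6v0d1 had levels of 11.93, 11.39, 12.06, 11.66 and 12.98, and was 1.10-fold and 1.20-fold higher in Ly6Clow cells. Per kilobase of exon, Atp6v0d2 made up 1.38%, 6.66%, 11.4%, 21.4% and 13.1% of the sum of both forms. In BMDM it made up 44.9%, 46.1% and 46.8% in the untreated libraries and 46.1%, 48.6% and 51.6% in the RvD2 libraries. Every BMDM library therefore had a larger share of the second form than any muscle group, although the 2 tables were normalised separately; the share is a ratio within a column. Exon length is the union over GENCODE M21 transcripts, so the absolute share depends on which exons are used.

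**Figure D3:**
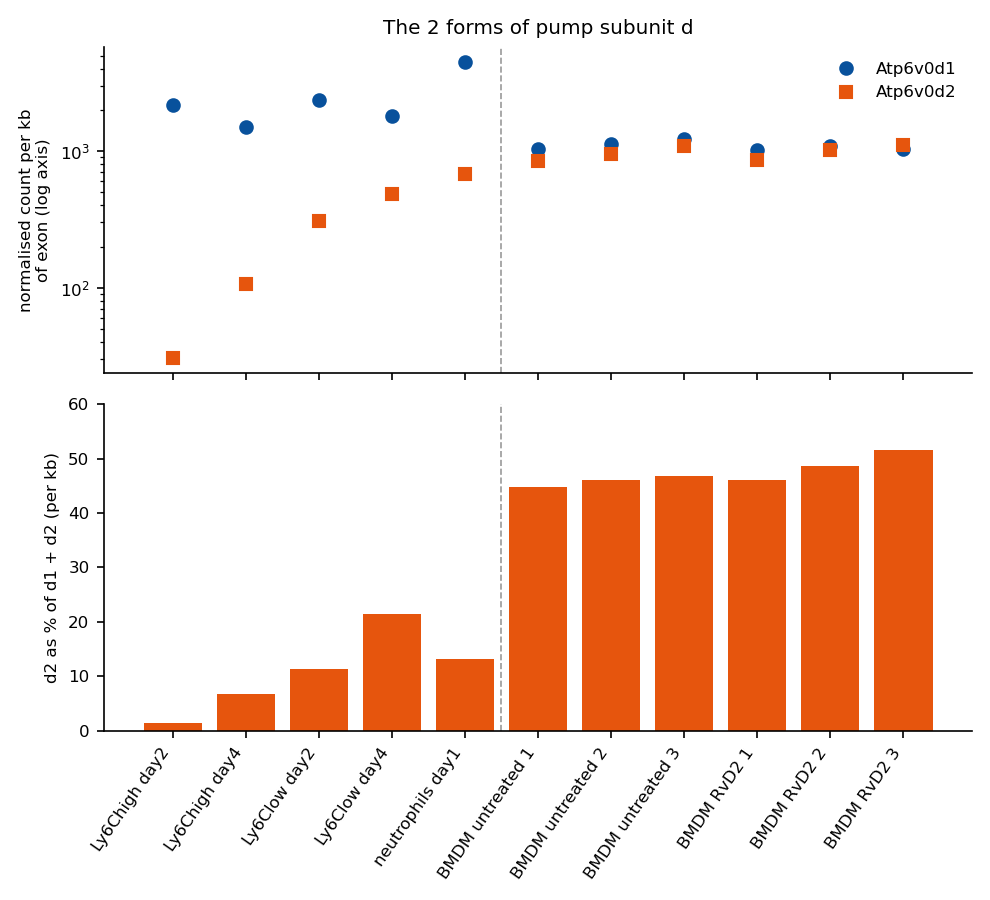
Normalised counts per kilobase of exon of Atp6v0d1 and Atp6v0d2 on a log axis (top), and Atp6v0d2 as a percentage of their sum (bottom), in 5 muscle groups, each the authors' mean, and 6 BMDM libraries, right of the dashed line. The share runs from 1.38% in Ly6Chigh cells at day 2 to 21.4% in Ly6Clow cells at day 4 and lies between 44.9% and 51.6% in BMDM.

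Other genes known from osteoclasts and fused macrophages could be compared between subsets only in part. Of the 9 listed, 4 reached the level of 50 in the day 2 comparison, with 0 called higher and 1 lower (Ocstamp). At day 4 it was 5, again with 0 and 1 (Itgb3). Over all genes, 5.9% were called higher and 5.46% lower at day 2, and 2.98% and 4.22% at day 4. So few genes cannot show a share above or below these. Ocstamp at day 2 and Itgb3 at day 4 reached the level through Ly6Chigh cells alone and could only be called lower. Ocstamp, a membrane protein needed for fusion, was at 6.20, 7.01, 1.22, 7.02 and 1.74. Acp5, the acid phosphatase of osteoclasts and macrophages, was counted among the other lysosomal enzymes and not among these 9. Its levels were 9.99, 10.88, 10.16, 12.12 and 10.60. Like Atp6v0d2, Acp5 was called higher in Ly6Clow than in Ly6Chigh cells at day 4 (2.34-fold). Unlike Atp6v0d2, it was not called between subsets at day 2. Within Ly6Clow cells Acp5 was 3.84-fold higher at day 4 than at day 2, whereas Atp6v0d2 was 1.59-fold higher and not called. Low counts of 1.22 or 1.74 on the log2 scale are near the floor of the table.

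None of the other 13 pump genes was called between subsets. Among V0 genes, Atp6v0a1, whose subunit carries the proton half-channels, had levels of 11.34, 11.05, 12.10, 11.49 and 12.12. Atp6v0b, a proteolipid of the rotor, had levels of 11.58, 11.51, 11.73, 11.81 and 13.22. Atp6v0c, the main proteolipid, had levels of 12.97, 12.60, 12.89, 12.81 and 14.59. Of these 3 only Atp6v0a1 exceeded 1.5-fold between subsets, at day 2 (1.70-fold).

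Within V1, the ATP-splitting subunits A and B had the larger ratios. Atp6v1a had levels of 12.24, 11.91, 13.00, 12.63 and 14.04, and was 1.69-fold and 1.64-fold higher in Ly6Clow cells. Atp6v1b2 had levels of 12.49, 12.26, 13.25, 12.66 and 13.13, and was 1.69-fold and 1.33-fold higher. The stalk and rotor genes showed less. Atp6v1c1 had levels of 11.72, 11.23, 11.82, 11.20 and 13.21. Atp6v1d had levels of 10.29, 10.11, 10.48, 10.38 and 11.41. Atp6v1e1 had levels of 11.10, 10.69, 11.29, 10.98 and 13.21. These 3 genes, for the C stalk, the central shaft and the outer stalk, differed at most 1.22-fold between subsets. Atp6v1f was at 10.15, 10.00, 10.22, 10.21 and 11.15, and Atp6v1h, a regulatory subunit, at 10.79, 10.13, 10.97, 10.21 and 9.91. The accessory gene Atp6ap1, needed for assembly, had levels of 12.64, 12.30, 12.72, 12.45 and 13.57. Atp6ap2, also known as the prorenin receptor, had levels of 11.25, 11.29, 11.31, 11.31 and 13.16. In the macrophage groups Atp6ap2 was the flattest member, within 0.06 on the log2 scale.

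Related genes outside the member list were on the same side in part. Of 32 other lysosomal enzymes, 8 were called higher in Ly6Clow cells at day 2 and 4 at day 4, and 0 were lower at either day (median log2 ratio 0.63 and 0.50). Over all genes, 5.9% were called higher and 5.46% lower at day 2, and 2.98% and 4.22% at day 4. Arsb, a sulfatase of dermatan sulfate, was at 7.42, 8.90, 8.98, 9.39 and 8.20, and Sgsh, a sulfatase of heparan sulfate, at 9.03, 9.36, 10.43, 10.81 and 10.18. Of 26 other lysosomal membrane proteins, 25 had a level of 50, and 2 and 3 were called higher, at day 2 near the share of all genes. Mcoln3, called at day 2, reached the level through Ly6Clow cells alone and could only be called higher. Cd63, a tetraspanin, was at 11.01, 11.29, 12.42, 12.40 and 13.19. Of 11 genes that sort proteins to lysosomes, 2 were called higher at each day, Sort1 and Ap1b1 at day 2 and Igf2r and Ap1b1 at day 4. Of 19 autophagy genes, 0 were called between subsets in either direction at either day (median 0.14 and 0.19). In a list of 19 genes, 0 calls are not clearly apart from the shares of all genes. Only 4 of the 11 other pump subunits reached the level of 50 at day 2 and 5 at day 4, with 0 called.

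Within each subset the pump and the enzymes also differed between days. In Ly6Chigh cells, day 4 against day 2, 2 members were called higher (Atp6v0d2 and Ctss, the latter 2.03-fold) and 1 lower (Ctsl, 2.54-fold), beside 9.67% and 3.74% of 11618 genes, and at 1.5-fold it was 4 and 2, beside 17.9% and 11.4%. With the groups rescaled to equal totals, 4 members were higher, the added ones being Ctsh and Ctsf. In Ly6Clow cells 3 were called higher (Ctsf, Ctsc and Man2b1, at 9.34-fold, 2.11-fold and 2.31-fold) and 0 lower, beside 8.08% and 3.24% of 11560 genes. Ctsf was under 50 at day 2 in both subsets and passed the level through day 4 alone, so it could only be called higher. At 1.5-fold 5 members were higher and 7 lower in Ly6Clow cells, beside 15.6% and 12.7%. At 2-fold the members' shares were near or below those of all genes in both subsets. The pump medians were -0.31 in Ly6Chigh and -0.29 in Ly6Clow cells, with 2 and 3 of 14 genes above 0, and the enzyme medians were 0.11 and 0.10, with 11 of 16 and 11 of 17 above 0. All 11 fibroblast markers were called higher at day 4 in Ly6Chigh cells (median 5.72), and in Ly6Clow cells all 7 with a level of 50. In Ly6Chigh cells 7 of 9 dendritic cell and 4 of 9 T and NK cell markers had that level, and all of these were called higher. Of 11 skeletal muscle markers, 4 and 6 had that level in Ly6Chigh and Ly6Clow cells, and 3 and 6 were called higher. Apart from Col3a1, Col1a2 and Col1a1 in Ly6Chigh cells and Acta1 in Ly6Clow cells, these called markers were under 50 at day 2. They passed the level through day 4 alone and could only be called higher. Of the 5 neutrophil markers with a level of 50, 4 were called lower at day 4 and 0 higher in Ly6Clow cells (median -1.37), and 2 lower and 1 higher in Ly6Chigh cells (median -0.95). Apart from Mmp8, the called neutrophil markers reached the level at 1 day only, which fixed their direction. Endothelial markers had 2 of 4 called higher in Ly6Chigh cells and 0 of 2 called in Ly6Clow cells, and the part of all these markers was not tested. In Ly6Chigh cells Cd8a was at 0.94 and 7.60 and Siglech at 3.49 and 9.12 at days 2 and 4.

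Neutrophils differed from macrophages most, and in opposite directions for the pump and the enzymes. Against the mean of the 4 macrophage groups, 14 members were called higher in neutrophils and 12 lower, beside 30.7% and 28.9% of 12086 genes; at 1.5-fold it was 16 and 15, beside 39.4% and 35.9%. The members' totals were thus close to the share of all genes, and the roles differed. Ctsf was under the level of 50 in neutrophils and in the macrophage mean and was not counted. The 14 higher ones included 11 of 14 pump genes, and the 12 lower ones included 11 of 16 cathepsins, glycosidases and legumain. The median log2 ratio was 1.39 for the pump and -1.54 for the enzymes, a distance of -2.92; rescaling a column moves both medians alike, apart from the 10 that is added. The count of calls does depend on scaling: with equal totals the median gene shifted by -1.02, the share of calls in all genes that were higher went from 51.5% to 21.8%, and 2 members were higher and 19 lower. Atp6v1f and Atp6ap1 then changed sign, to -0.05 and -0.02. With equal totals 5 of 14 pump genes still lay above all 4 macrophage groups, compared with 12 of 14 as deposited, and 15 of 17 enzyme genes lay below all 4, compared with 13 of 17.

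The pump genes with the largest excess in neutrophils were Atp6v1e1 (4.55-fold) and Atp6v0d2 (4.40-fold), and these were the 2 members still called higher with equal totals, with log2 ratios of 1.12 and 1.09. For Atp6v0d2 the macrophage mean includes its low Ly6Chigh levels. Its share of normalised counts was 0.00708% in neutrophils, 0.000658% and 0.00244% in Ly6Chigh cells, and 0.00658% and 0.0104% in Ly6Clow cells. With equal totals neutrophils were thus near Ly6Clow cells of day 2 and below those of day 4. Atp6ap2 (3.66-fold), Atp6v0c (3.40-fold), Atp6v1c1 (3.28-fold) and Atp6v1a (3.01-fold) followed. Atp6v1h was the exception, 1.53-fold lower in neutrophils. Outside the pump, Mcoln1 (3.28-fold), Lamp2 (2.42-fold) and Tfeb (2.33-fold) were called higher.

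The deepest deficits were those of Glb1 (16.4-fold lower in neutrophils), Lgmn (14.7-fold) and Ctss (13.3-fold). Ctsk was 6.79-fold, Ctsh 5.47-fold, Ctsc 5.03-fold, Gusb 4.31-fold, Grn 3.97-fold and Ctsl 3.35-fold lower. Ctsa, Hexa and Ctsb were called with 2.52-fold, 2.06-fold and 2.00-fold. As deposited not all enzymes followed, since Ctsd (1.04-fold higher), Ctsz (1.10-fold lower), Man2b1 (1.34-fold lower) and Naglu (1.38-fold higher) were nearly even. So was the precursor gene Psap (1.21-fold lower). With equal totals Ctsd, Ctsz, Man2b1 and Psap were called lower, at -1.01, -1.20, -1.49 and -1.34, and Naglu was at -0.60 and not called. Among macrophage markers, Mertk in neutrophils was at 3.69 against at least 9.76 in the macrophage groups, and the part of any macrophage RNA in the neutrophil levels was not tested.

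**Figure D4:**
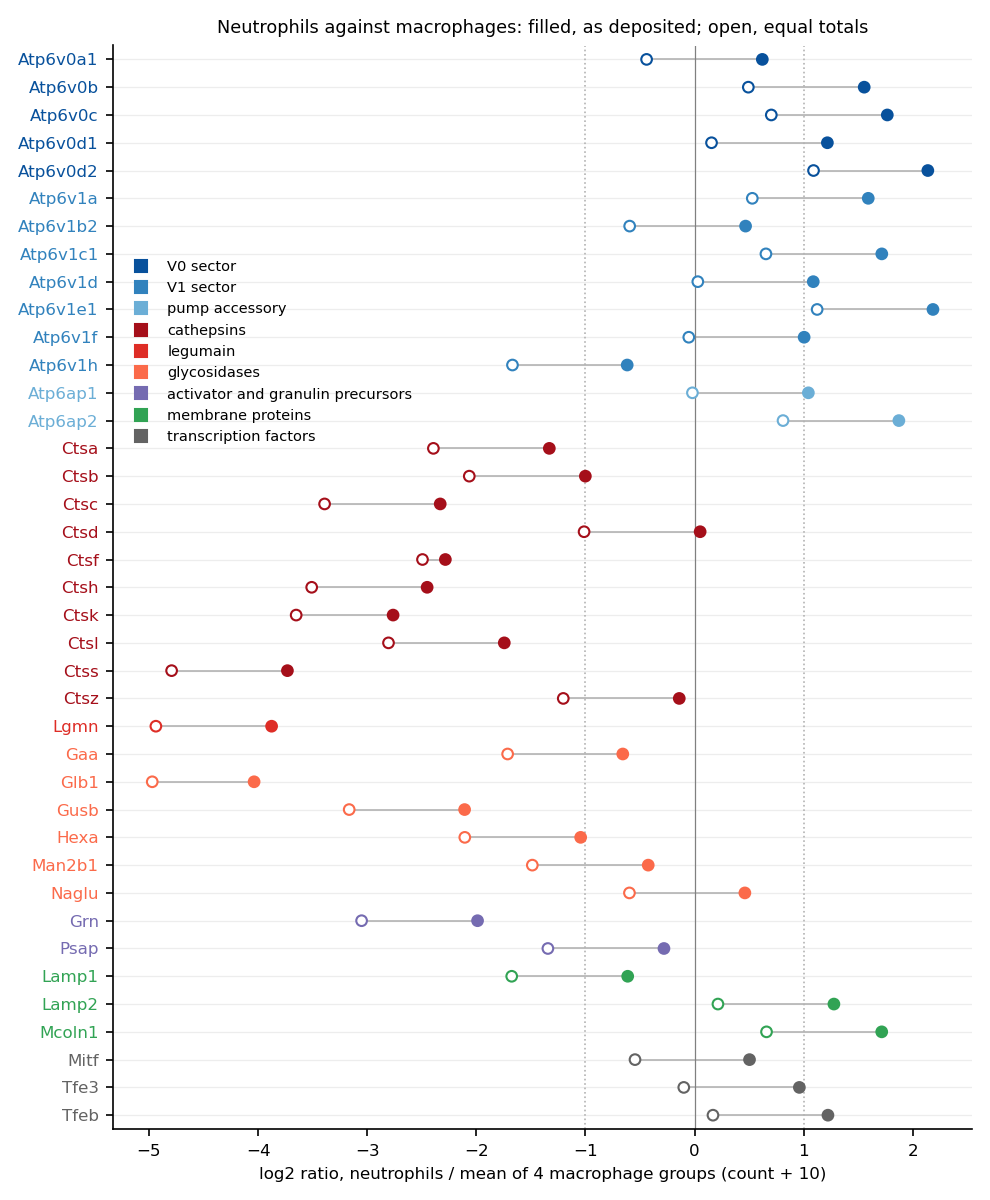
Log2 ratio of neutrophils at day 1 to the mean of the 4 macrophage groups for each of the 39 genes, coloured by role; filled points are as deposited and open points after rescaling each group to the same total. The median of the pump genes (top) is 1.39 and that of cathepsins, legumain and glycosidases -1.54 as deposited, and 0.32 and -2.60 with equal totals; single genes overlap, since Atp6v1h lies to the left of Ctsd, Ctsz and Naglu.

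Neighbouring lists differed in neutrophils as well. With equal totals the share of all 12000 genes called higher was 14.0% and that called lower 50.4%, in place of 30.7% and 28.9% as deposited. Of 19 autophagy genes, 13 were called higher and 0 lower as deposited (median 1.37), and 5 and 1 with equal totals (median 0.30), with the autophagy receptor Optn at 6.07, 6.83, 6.42, 7.15 and 12.61. Of the 5 cathepsin inhibitors with a level of 50, 4 were called higher and 0 lower as deposited, and 3 and 1 with equal totals. Stfa1, Stfa2 and Stfa2l1, at 0 to 0.34 in the macrophage groups, reached that level through neutrophils alone. They could therefore only be called higher, and their calls say nothing about the list. Stfa2l1, a stefin, was at 10.71 in neutrophils and at 0.34, 0, 0 and 0 in the macrophage groups; Stfa2l1 has near-identical copies, so how reads were divided among them is uncertain. Of 32 other lysosomal enzymes 5 were called higher and 8 lower as deposited, and 2 and 21 with equal totals. Scpep1, a serine carboxypeptidase, stood at 12.31, 12.05, 12.42, 12.41 and 7.56, and Hgsnat, an acetyltransferase of heparan sulfate breakdown, at 9.76, 9.86, 9.44, 10.04 and 12.26.

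Members with and without the core motif CACGTG in a promoter window can be set side by side. Of the 13 with the motif, 4 were called higher in Ly6Clow cells at day 2 and 5 at day 4. The 5 include Ctsf, which as deposited passed the level through Ly6Clow cells of day 4 alone and could only be called higher. Of the 20 with a window but no motif, 1 was called higher at each day. Over all genes, 5.9% and 2.98% were called higher at these days. With equal totals the counts were 4 and 5 with the motif, and 1 and 0 without it. In neutrophils, 4 of the 13 were called higher and 4 lower, and 8 and 6 of the 20, close to the 30.7% and 28.9% of all genes. With equal totals it was 0 and 7 of the 13, and 1 and 9 of the 20, beside 14.0% and 50.4% of all genes. Members with the 8-letter motif differed in sign as deposited, Atp6v1a at 1.59 and Mcoln1 at 1.72 against Ctsa at -1.33 on the log2 scale. The motif was uneven over roles. It was present for 4 of 8 cathepsins, 3 of 6 glycosidases, legumain and 2 of 3 membrane proteins with a window. For V0 it was 2 of 4, for V1 1 of 4, and for accessory, precursor and transcription factor genes 0. Ctsb and Atp6v0d2, called higher at both days, had no window and are in neither group. The part of role in these counts was not tested. The members are known lysosomal genes chosen as such, and no test was made of these counts.

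Few members differed detectably between RvD2-treated and untreated BMDM. With limma over 15239 genes (two-sided, Benjamini-Hochberg), 0 of 39 members were higher and 1 was lower after 4 h of 10 nM RvD2, beside 0.794% and 1.06% of all genes. The differences of the 39 members ranged from -0.32 to 0.17 on the log2 scale, which is 80.3% to 112% of the untreated level, with standard errors of 0.05 to 0.15 and a median of -0.0043. Without adjustment, 1 member and 2370 genes had limma p under 0.05. The 3 values of each group did not overlap for 0 members higher and 2 lower, Atp6v0a1 and Atp6v1h, beside 9.29% and 11.7% of genes.

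Atp6v0a1 (chromosome 11, 101009452 to 101063719, plus strand) was the member that passed. Its levels were 11.65, 11.67 and 11.68 in untreated libraries and 11.38, 11.28 and 11.39 in RvD2 libraries, so all 3 treated values lay below all untreated ones. The difference was -0.32 ± 0.05 (SE, n = 3 per group; limma, adjusted p = 0.0212), or 80.3% of the untreated level. The call was lost in 5 of 6 fits that left out a library: limma gave adjusted p of 0.0305 without RvD2 replicate 1, and of 0.0647, 0.106, 0.0696, 0.0928 and 0.0761 without untreated replicates 1, 2 and 3 and RvD2 replicates 2 and 3. With a constant prior variance in limma the adjusted p was 0.112.

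The members with the next smallest p did not pass. Atp6v1h was at 10.77, 10.85 and 10.80 without and 10.45, 10.73 and 10.71 with RvD2 (-0.18 ± 0.08 SE, limma adjusted p = 0.327). Atp6v1b2 was at 12.55, 12.71 and 12.70 and at 12.42, 12.60 and 12.53 (-0.14 ± 0.07 SE, limma adjusted p = 0.373). The groups overlapped in Atp6v1b2. Ctsc was at 11.26, 11.03 and 11.30 and at 11.47, 11.22 and 11.41 (0.17 ± 0.09 SE, limma adjusted p = 0.423). Ctsz differed by -0.11 ± 0.06 SE (limma adjusted p = 0.479), and Atp6v0d1 by -0.11 ± 0.07 SE (limma adjusted p = 0.484), both with overlapping groups.

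The abundant enzymes did not pass, and their groups overlapped. Ctsd was at 17.11, 17.27 and 17.43 in untreated and 17.07, 17.23 and 17.24 in RvD2 libraries. Ctsb was at 17.17, 17.29 and 17.43 and at 17.19, 17.33 and 17.38. Psap was at 16.98, 17.12 and 17.22 and at 16.99, 17.08 and 17.11. Treated and untreated ranges of these 3 overlapped. The same held for Ctsl (14.64, 14.96 and 15.07 against 14.63, 14.98 and 15.09) and Ctss (13.77, 14.01 and 14.19 against 13.80, 14.10 and 14.16). Ctsk was at 8.40, 8.45 and 8.42 against 8.46, 8.26 and 8.33. Grn was at 14.37, 14.52 and 14.67 against 14.43, 14.50 and 14.53, and Lamp1 at 14.34, 14.43 and 14.57 against 14.34, 14.44 and 14.51. Among the transcription factors, Tfeb was at 8.88, 9.14 and 9.17 against 9.12, 9.18 and 8.94, Tfe3 at 10.69, 10.85 and 10.91 against 10.79, 10.82 and 10.83, and Mitf at 9.18, 9.31 and 9.33 against 9.05, 9.60 and 9.47. Atp6v0d2 was at 11.17, 11.34 and 11.52 against 11.20, 11.43 and 11.54.

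Libraries of one group differed from each other in the members as a block. Untreated replicate 1 held the lowest of the 3 untreated values for 37 of the 39 members and untreated replicate 3 the highest for 33. RvD2 replicate 1 held the lowest treated value for 29 and RvD2 replicate 3 the highest for 23. In both groups, then, replicate 1 was the lowest and replicate 3 the highest for most members. The neutrophil markers were also lowest in replicate 1 and highest in replicate 3, at 0.0388%, 0.0586% and 0.122% of normalised counts in untreated and 0.0395%, 0.0503% and 0.0766% in RvD2 replicates 1, 2 and 3, and their part was not tested. The members summed to 4.95%, 5.34% and 5.79% of normalised counts in untreated replicates 1, 2 and 3, and to 4.95%, 5.36% and 5.48% in RvD2 replicates 1, 2 and 3. For 34 of 39 members the range of the 3 untreated values exceeded the difference between the group means, and for 35 the range of the treated values did.

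Of the neighbouring pathway lists, the genes around the Rag GTPases were the one list with calls after RvD2. Over all genes tested, 0.794% were called higher and 1.06% lower. The lists were chosen with earlier results of these data known, so the count for this list is no independent support. Of 13 tested genes of that list (Rag GTPases, which recruit mTORC1 to lysosomes, the Ragulator that anchors them, and folliculin with its partners), 0 were higher and 3 lower, all 3 of the folliculin complex, which acts on RagC and RagD and so on TFEB and TFE3. Fnip2 was at 11.90, 12.26 and 12.13 in untreated and 11.12, 11.39 and 11.28 in RvD2 libraries (-0.83 ± 0.10 SE, limma adjusted p = 0.00747). Flcn was at 10.15, 10.33 and 10.33 and at 9.73, 9.90 and 9.85 (-0.45 ± 0.07 SE, limma adjusted p = 0.0204). Fnip1 was at 10.20, 10.29 and 10.30 and at 9.72, 9.95 and 9.92 (-0.40 ± 0.07 SE, limma adjusted p = 0.0322). In all 3 the treated libraries lay below the untreated ones. Over the 13 genes the groups did not overlap for 1 higher and 4 lower, beside 9.29% and 11.7% of all genes. When each library was left out in turn, Fnip2 passed in 6 of 6 limma fits (adjusted p 0.0151 to 0.0451), Flcn in 2 (0.0301 to 0.101) and Fnip1 in 1 (0.0396 to 0.129). With a constant prior variance none of the 3 passed (limma adjusted p 0.0653, 0.101 and 0.122). Of 32 other lysosomal enzymes, 26 other lysosomal membrane proteins, 11 sorting genes and 19 autophagy genes, 0 passed in either direction, with medians of 0.01, -0.07, 0.01 and -0.0023. Among the 8 macrophage markers, Cd14 passed, at 10.60, 11.05 and 11.31 in untreated and 11.87, 12.00 and 12.41 in RvD2 libraries (1.11 ± 0.18 SE, limma adjusted p = 0.0237, kept in 2 of 6 fits without a library, 0.0276 to 0.0992), and its part in the other differences was not tested. In muscle the same folliculin genes were, as deposited, higher in neutrophils than in the macrophage groups, Fnip2 at 12.33, 10.92, 12.25, 11.43 and 14.14, Flcn at 11.79, 11.42, 11.17, 11.55 and 12.74, and Fnip1 at 10.49, 10.54, 10.43, 10.64 and 12.83. Their log2 ratios to the macrophage mean were 2.41, 1.26 and 2.29. Equal totals shifted the median gene by -1.02, so most of the Flcn ratio depends on the scaling. The median of that list was 0.35 as deposited and -0.71 with equal totals. Flcn is named in muscle because of its BMDM result, after its values were seen.

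**Figure D5:**
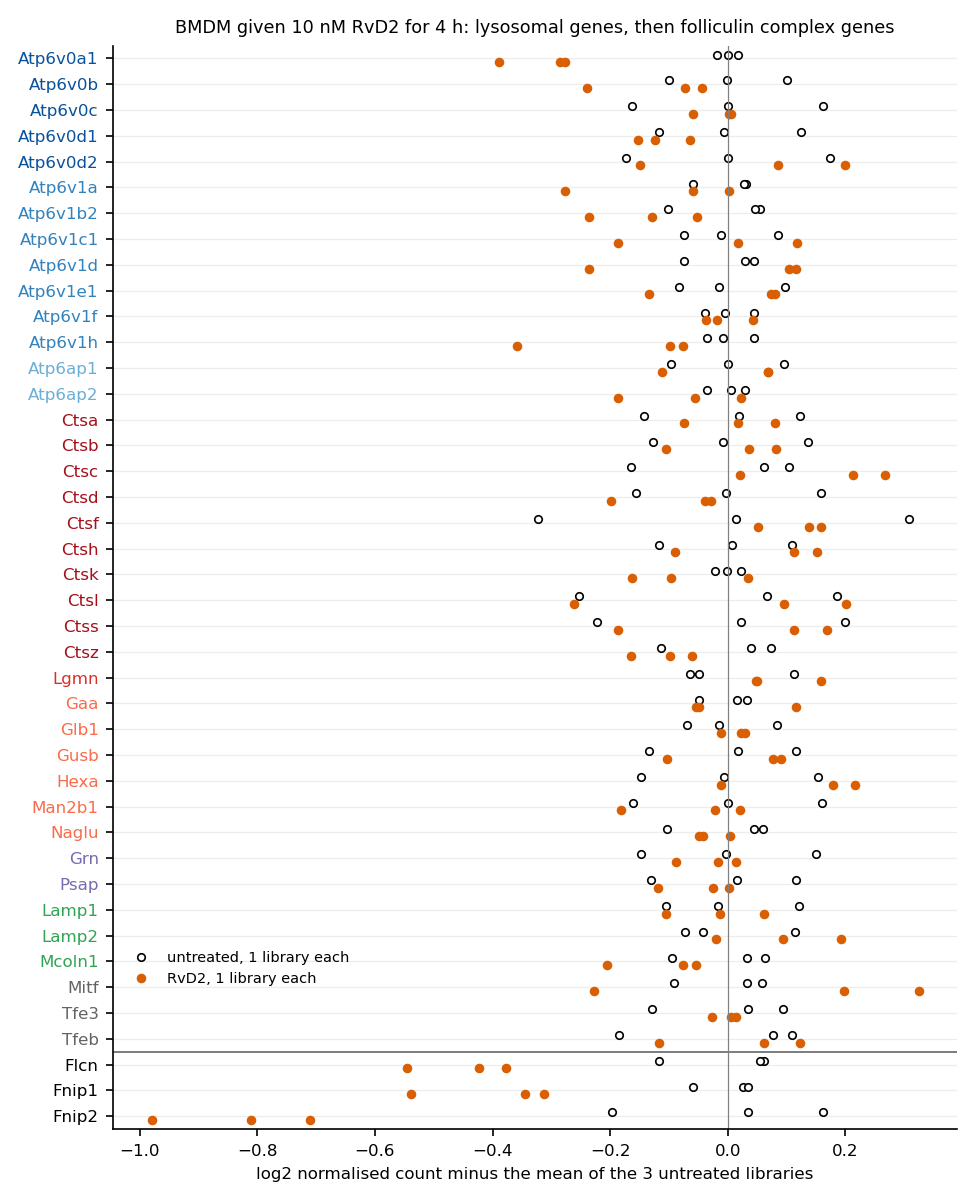
Log2 normalised count of each of the 39 genes in 6 BMDM libraries, minus the mean of the 3 untreated libraries, with Flcn, Fnip1 and Fnip2 below the line; open points are untreated libraries and filled points RvD2 libraries. Atp6v0a1, Flcn, Fnip1 and Fnip2 have the 3 treated points to the left of the 3 untreated ones; for most other genes the points are mixed.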

How the data were processed

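Per the labels' protocols, poly-A RNA was made into libraries with a TruSeq kit that marks no strand, so reads of overlapping or antisense genes cannot be told apart. TopHat2 2.0.7, DESeq and mm10 are named in the submitters' processing notes, without roles. The authors deposited log2 normalised counts per gene, and the values show that those under 1 were set to 0. Muscle columns name a group and were read as means of log2 values, and no step between low values was estimated for them. BMDM columns are libraries. All columns belonged to samples of the series. Of 25 samples in 9 groups, 6 were not analysed here, namely blood monocytes and Ly6Chigh cells of day 1.

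Muscle ratios used 2 to the power of the deposited value, plus 10. In BMDM, genes averaging 10 or more normalised counts entered limma 3.58.1 (R 4.3.3) with a mean-variance trend and a threshold of 0.05, and the fit was tested on simulated data. BMDM depth was estimated from the step between low values, taken as 1 read; 41.0 to 51.3% of low values lay within 0.02 of a whole number of reads, so the estimate is rough. Exon lengths are from GENCODE M21. The members and gene lists were chosen with earlier results of these data known. All members are described; of each other pathway list, at most the 3 called genes with the largest ratio in a comparison were named, apart from Flcn. Python 3.11.15, numpy 2.4.6, pandas 2.3.3 and matplotlib 3.10.9 were used. Alternatives were other added values, filters, folds and scalings, a constant prior variance, a replicate block and leaving out each library.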

Additional observations from a re-analysis of the deposited data

How the results depend on the processing

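Adding 1 or 50 to the muscle counts, or a level of 10, changed no count of called members by more than 1.5 times. At 1.5-fold the members called higher were 18 (Ly6Clow against Ly6Chigh, day 2), 15 (day 4), 4 (Ly6Chigh cells, day 4 against day 2) and 5 (Ly6Clow cells), with 2 and 7 lower in the last pair of comparisons. With equal totals 7 in place of 8 were higher in Ly6Clow cells at day 4 (Hexa lost), 4 in Ly6Chigh cells at day 4 against day 2, and 2 higher and 19 lower in neutrophils, where Atp6v1f (-0.0529) and Atp6ap1 (-0.0196) changed sign. That scaling shifts all genes of a column alike. The alternatives for genes of other lists and motif groups were added after seeing the data.

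In BMDM limma called 283 genes, 49 with a constant prior variance (0 members lower) and 79 to 288 with a library left out (0 to 1 members lower, 0 higher); each of the latter fits has 1 library fewer, and the cause was not tested. The labels do not say that replicate numbers pair the libraries, and over all genes same-numbered deviations correlated at 0.29, 0.024 and 0.0521, not all above 0.1, although replicate 1 was lowest and replicate 3 highest for most members in each group; untreated replicate 2 correlated best with RvD2 replicate 3 (0.185). With a replicate block limma called 1066 genes, and Atp6v0a1 was again the only member (adjusted p = 0.00341). No paired analysis was possible in muscle because each column is a group mean, and no library could be left out or depth limit set there.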
